A study of Arabidopsis thaliana with 6 samples.

Results

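The rapid touch and stress response genes described here are 8 Arabidopsis thaliana loci: STZ, CML38, AT4G27280, AT3G10930, AT4G29780, AT4G27654, AT1G05575 and AT2G25735. Each had 1 probe set that the platform annotation gave to it alone, so 8 of 13286 loci with a named probe set (8 of 22746 probe sets tested) are the subject. They were chosen with their levels on these same arrays known, among them that single arrays of the mutant and the overexpressor stood far from the rest. Their levels and differences between genotypes are therefore given as a description, with no test; the SE of a difference is only a measure of spread.

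Plant roots respond to touch, bending, wounding and handling with a calcium signal in the cytosol, and early stress genes are transcribed shortly afterwards. STZ, also called ZAT10 (salt tolerance zinc finger), is a zinc-finger protein that represses transcription and is induced by cold, salt, light and wounding. CML38 encodes a calmodulin-like protein, a relative of the calcium sensor calmodulin. The gene table gives the other 6 members only a locus identifier, so no function is stated for them.

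Root RNA from seedlings grown for 7 days on vertical plates of half-strength MS medium was hybridised to 6 Affymetrix ATH1 arrays, on which a group of short probes, the probe set, measures a transcript. The 3 genotypes, wild type, AtRXR1 overexpression and AtRXR1 mutant, had 2 arrays each, and RXR1 is known to restrain the growth of root hairs. The promoter of the overexpressor, the mutant allele, the number of independent lines and the accession are not given in the sources used here, and the level of RXR1 itself was not analysed here. Whether replicates were grown or harvested separately is not stated in the labels. The p-values below therefore speak for the spread of these arrays alone, and that spread may be technical.

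Array medians lay between 108.3 and 111.3 intensity units. With 2 arrays a genotype, precision is low. Wild-type replicate 2 stood apart: in the authors' deposited table of correlations it reached 0.97 to 0.983 with the other 5 arrays, against 0.994 to 0.998 among those 5. The labelled tissue could be checked on few of its markers. Of 14 root markers 3 were measured under a name. PYK10, an abundant root beta-glucosidase, had log2 signals from 13.32 to 13.67. The root hair expansins EXPA7 and EXPA18 ran from 7.58 to 8.42 and from 7.93 to 8.87, with both overexpressor arrays lowest in each. Of 14 shoot markers only LHCB4.2, a light-harvesting protein gene, was measured under a name (7.07 to 7.57). None of 13 markers of dividing cells was measured under a name.

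In the mutant, STZ and the calcium-related CML38 were lowest, and in the overexpressor they were highest. The log2 signal of STZ was 8.42 and 8.31 in wild type, 8.67 and 9.13 in the overexpressor, and 6.42 and 7.95 in the mutant (replicate 1 before replicate 2 here and below). No array of one genotype overlapped another genotype for STZ, but the mutant arrays lay farther apart (SD 1.08, n = 2) than wild type lay from the overexpressor. The overexpressor mean was 0.54 ± 0.426 above wild type (difference of log2 means ± SE from the fit over all 6 arrays, n = 2 per group), the mutant mean was -1.18 ± 0.426 from wild type, and the overexpressor exceeded the mutant by 1.72, which is 3.29-fold. In bulk root RNA, fewer cells of a type and less RNA per cell cannot be told apart.

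CML38 gave 5.37 and 5.59 in wild type, 5.53 and 6.42 in the overexpressor, and 4.05 and 4.79 in the mutant. Only overexpressor replicate 2 lay above both wild-type arrays, while both mutant arrays lay below them. The differences were 0.50 ± 0.318 for the overexpressor and -1.06 ± 0.318 for the mutant against wild type. Overexpressor and mutant were 1.55 apart (2.94-fold). The mutant signals of 16.6 and 27.6 intensity units were not shown to lie above background. On log2(signal + 16), which damps low signals, the mutant differed from wild type by -0.68 and from the overexpressor by 1.08.

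**Figure D1:**
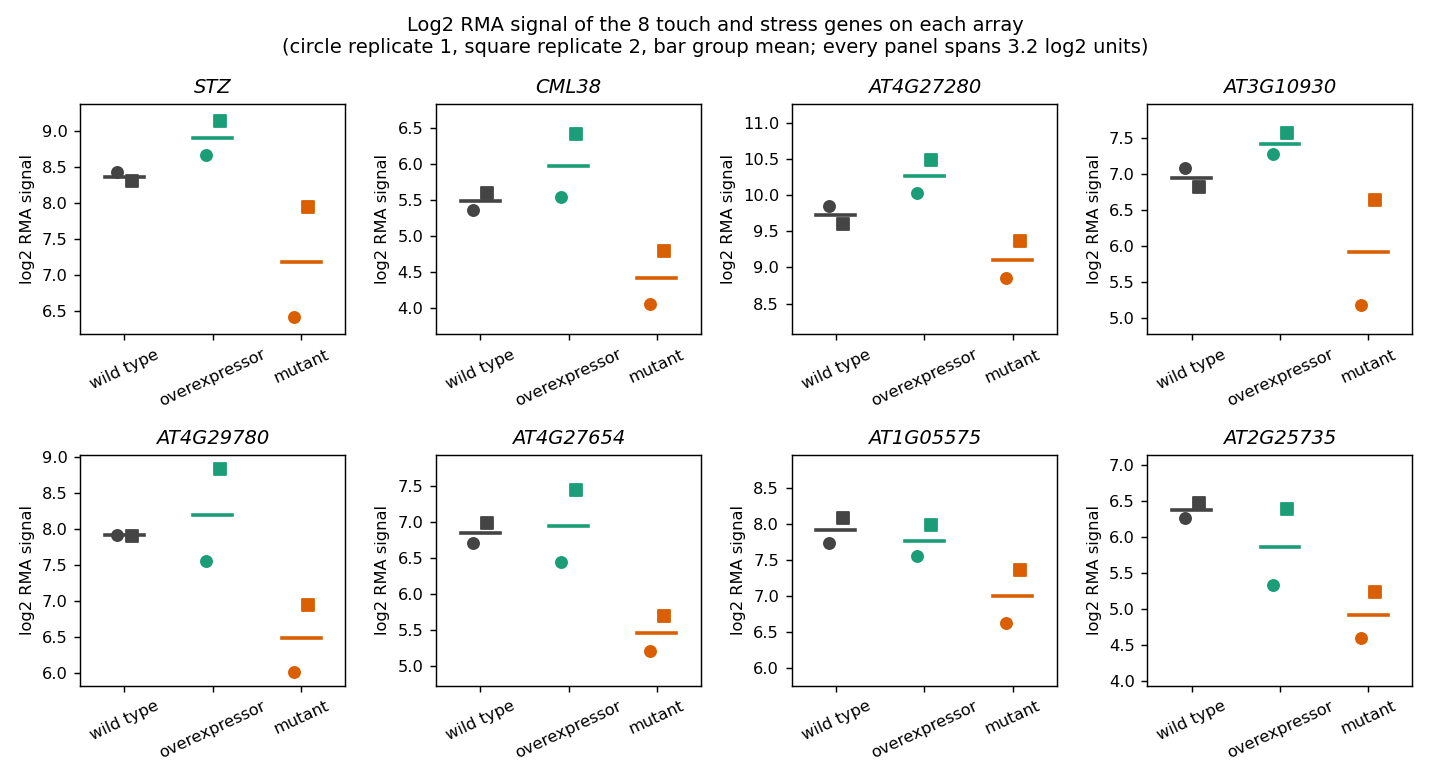
Log2 RMA signal (vertical axis) of each of the 8 genes by genotype (horizontal axis), with circles for replicate 1, squares for replicate 2 and bars for the mean of 2 arrays. Mutant replicate 1 is the lowest point in 8 of 8 panels, and overexpressor replicate 2 is the highest in 6.

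AT4G27280 had the same order with the smallest SE of the 8 genes. Its log2 signal was 9.85 and 9.60 in wild type, 10.04 and 10.49 in the overexpressor, and 8.85 and 9.37 in the mutant. The 3 genotypes did not overlap. The overexpressor differed from wild type by 0.54 ± 0.207 and the mutant by -0.61 ± 0.207, the smallest distance of the mutant from wild type among the 8 genes. AT3G10930 was at 7.08 and 6.81 in wild type, 7.27 and 7.56 in the overexpressor, and 5.19 and 6.63 in the mutant. Its genotypes did not overlap either, although mutant replicate 2 lay close below the lower wild-type array. The mean differences of AT3G10930 from wild type were 0.47 ± 0.402 in the overexpressor and -1.04 ± 0.402 in the mutant.

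AT4G29780 and AT4G27654 shared another form: overexpressor replicate 1 lay below both wild-type arrays and replicate 2 above both. For AT4G29780 the wild-type arrays both gave 7.91, the overexpressor arrays 7.56 and 8.83, and the mutant arrays 6.02 and 6.95. The overexpressor mean was 0.29 ± 0.422 from wild type with overlapping arrays, and the mutant mean was -1.42 ± 0.422. AT4G27654 was at 6.70 and 6.98 in wild type, 6.44 and 7.44 in the overexpressor, and 5.21 and 5.70 in the mutant. Here the overexpressor and wild-type means were 0.10 ± 0.314 apart, well inside the spread of the overexpressor arrays (SD 0.711, n = 2), and the mutant was at -1.39 ± 0.314.

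AT1G05575 and AT2G25735 were not higher in the overexpressor than in wild type. AT1G05575 gave 7.74 and 8.08 in wild type, 7.55 and 7.98 in the overexpressor, and 6.63 and 7.36 in the mutant. Its overexpressor mean was -0.14 ± 0.255 from wild type with overlapping arrays, and its mutant mean was -0.91 ± 0.255. AT2G25735 was at 6.26 and 6.47 in wild type, 5.33 and 6.39 in the overexpressor, and 4.60 and 5.23 in the mutant. With -0.51 ± 0.338 it had the lowest value of the 8 genes for the overexpressor against wild type, and with -1.45 ± 0.338 also for the mutant. In AT2G25735, overexpressor replicate 1 lay only just above mutant replicate 2.

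The order of the means was thus overexpressor, wild type, mutant for 6 genes and wild type, overexpressor, mutant for AT1G05575 and AT2G25735. Between overexpressor and wild type the arrays overlapped in 5 genes and were apart, with the overexpressor higher, in STZ, AT4G27280 and AT3G10930 (3 of 8, against 21.6% of all probe sets). None of the 8 was entirely lower there (19.8% of all probe sets). The median of the 8 differences was 0.38, against 0.01 over all probe sets. Between mutant and wild type 8 of 8 did not overlap and were lower (19% of all probe sets), with a median of -1.12 against -0.01. Between overexpressor and mutant 8 of 8 did not overlap and were higher (20.3% of all probe sets), with a median of 1.50 against 0.00. The comparisons with wild type share the wild-type arrays, and the genes were chosen on these contrasts, so nothing is read from these counts.

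Within each line the arrays differed in the same direction for every member. Replicate 2 was higher than replicate 1 in 8 of 8 genes in the overexpressor and in 8 of 8 in the mutant, against 4 of 8 in wild type. The gap between replicates had a median of 0.67 in the overexpressor, 0.74 in the mutant and 0.24 in wild type (log2), while over all probe sets the medians were 0.08, 0.09 and 0.16. In both lines 8 of 8 members were among the 5% of probe sets with the widest gap, and 0 of 8 in wild type. These gaps were known when the genes were chosen.

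**Figure D2:**
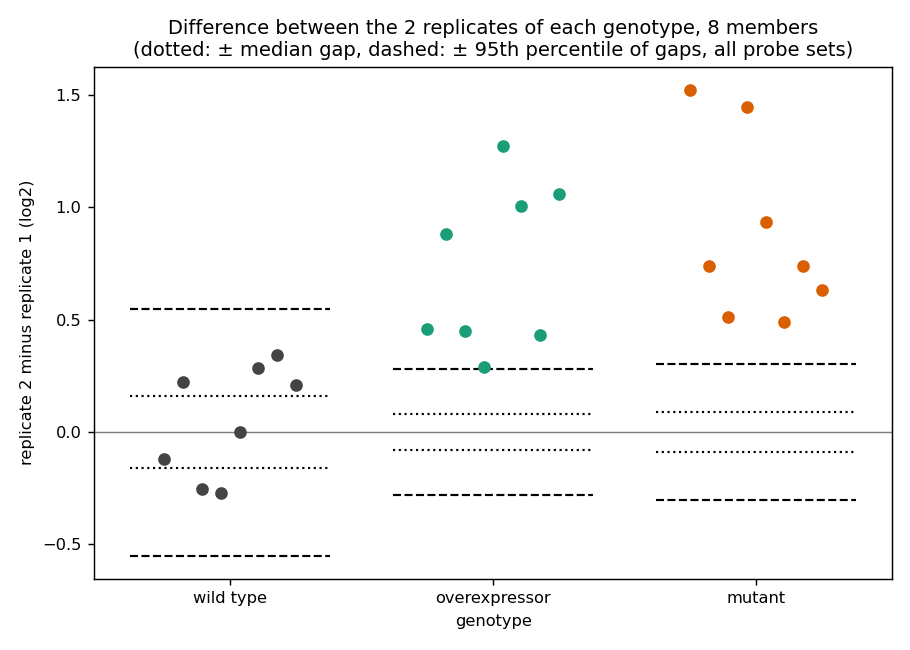
Log2 signal of replicate 2 minus replicate 1 (vertical axis) for the 8 genes in each genotype (horizontal axis, 1 point per gene), with the median (dotted) of the absolute gap over 22746 probe sets and the gap that 5% of them exceeded (dashed). All points of the overexpressor and the mutant lie above their dashed lines, at 0.28 and 0.30, and those of wild type lie inside theirs, at 0.55.

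The widest gap in the mutant was that of STZ, at 1.52, and only 6 of 22746 probe sets had a wider one there. AT3G10930 followed with 1.45, exceeded by 8 probe sets. In the overexpressor AT4G29780 had the widest gap of the members, at 1.27, exceeded by 4 probe sets, and AT2G25735 was next at 1.06. STZ and AT3G10930, which differed most between the mutant arrays, had gaps of 0.46 and 0.29 in the overexpressor, so the members that varied most were not the same in both lines.

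Some measures of RNA quality also differed between these arrays. For the actin control, the signal near the 3' end exceeded that near the 5' end by 1.39 and 1.40 log2 in wild type, 1.21 and 1.11 in the overexpressor, and 1.29 and 1.19 in the mutant. In both lines this excess was larger in replicate 1, the array with the lower member levels, and it was largest in wild type, where the members were not lowest. For GAPDH it was 0.37 and 0.28 in wild type, 0.25 and 0.29 in the overexpressor, and 0.36 and 0.15 in the mutant, and for ubiquitin it lay between -0.10 and 0.01. LHCB4.2 was at 7.18 and 7.57 in the mutant and at 7.07 and 7.09 in the overexpressor, so it was lower in replicate 1 of the mutant as the members were, with nearly equal overexpressor arrays. Whether these measures, or the handling of the seedlings at harvest, had a part in the members' levels was not tested.

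Because of these gaps, the size of each difference depended on which array was kept. With mutant replicate 1 left out, STZ was -0.42 from wild type, AT3G10930 -0.31, AT4G27280 -0.36 and AT1G05575 -0.54. AT2G25735, AT4G27654 and AT4G29780 kept -1.14, -1.14 and -0.96, and CML38 -0.69. With mutant replicate 2 left out the values ran from -0.87 in AT4G27280 to -1.94 in STZ. All 8 stayed negative whichever of the 4 arrays was left out. Between overexpressor and mutant all 8 stayed positive, but without mutant replicate 1 STZ went to 0.95, AT3G10930 to 0.78 and AT1G05575 to 0.40. Without overexpressor replicate 2, AT4G29780 was at 1.07, AT4G27654 at 0.98 and AT2G25735 at 0.42 in that comparison.

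Against wild type the overexpressor values were less stable. Without overexpressor replicate 2, AT4G29780 went to -0.35 and AT4G27654 to -0.40, AT2G25735 lay at -1.04, and CML38 at 0.06. Without overexpressor replicate 1, AT2G25735 was at 0.02 and AT1G05575 at 0.07. STZ, AT4G27280 and AT3G10930 stayed positive throughout, from 0.31 to 0.77 over these omissions. AT4G27654 also turned to -0.04 without wild-type replicate 1. Leaving out wild-type replicate 2, which stood apart, moved AT4G27654 from 0.10 to 0.24, AT1G05575 from -0.14 to 0.03, and the median of the 8 genes from 0.38 to 0.31. For the mutant the median without that array was -1.21.

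Across the 6 arrays the members followed each other closely. Pearson's r over the 28 pairs ran from 0.696 (AT4G27280 with AT2G25735) to 0.996 (STZ with AT3G10930), with a median of 0.921. CML38 was most like AT4G29780 (r = 0.983), and AT1G05575 was most like AT2G25735 (0.945). Outside the members, the nearest gene was AT4G27652 for STZ (0.982), AT5G17350 for AT3G10930 (0.974) and AT1G14480 for AT4G27280 (0.975). It was AT3G02840 for both CML38 (0.993) and AT4G29780 (0.987), AT2G41640 for AT4G27654 (0.988), AR781 for AT1G05575 (0.992) and AT3G01830 for AT2G25735 (0.988). These are descriptions over 6 arrays of 3 genotypes, which all genes share. The members were chosen knowing that single arrays stood far from the rest, and mutant replicate 1 was lowest in all 8. High r among them is thus partly built in by the choice. Averaged over the members, each centred on its own mean, the arrays stood at 0.28 and 0.33 in wild type, 0.16 and 0.89 in the overexpressor, and -1.27 and -0.39 in the mutant. Replicate 1 of the overexpressor thus lay nearer to wild type than to the other overexpressor array.

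Among 872 other named probe sets with an SD of at least 0.25 over the arrays, 26 had r of 0.9 or more with this average. The 10 most alike ran from AT4G27652 (r = 0.994) to AT1G19380 (0.964), with AT3G04640 (0.985), AT1G76600 (0.982) and AT3G02840 (0.979) next to the first. AT5G39670, AT5G46780, AT2G41640, AT5G17350 and AT4G24380 lay between 0.964 and 0.976. Mutant replicate 1 was the lowest array and overexpressor replicate 2 the highest in 10 of these 10 genes. Over all probe sets the shares were 13.4% and 14.5%. The 10 were picked for likeness to an average that was itself lowest and highest on those arrays, so nothing is read from this count. The likeness rested partly on that low array: without mutant replicate 1, r over the remaining 5 arrays ran from 0.875 to 0.993. The gene table gives the 10 genes only as loci, and 4 of them were in the lists of early stress genes below.

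AT4G27652 gave 8.08 and 8.15 in wild type, 8.05 and 8.58 in the overexpressor, and 6.85 and 7.71 in the mutant. AT5G17350 had the widest range of the 10, with 7.28 and 6.83 in wild type, 7.14 and 7.73 in the overexpressor, and 5.66 and 6.60 in the mutant. In both genes the mutant arrays lay below both wild-type arrays and the overexpressor arrays overlapped wild type.

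**Figure D3:**
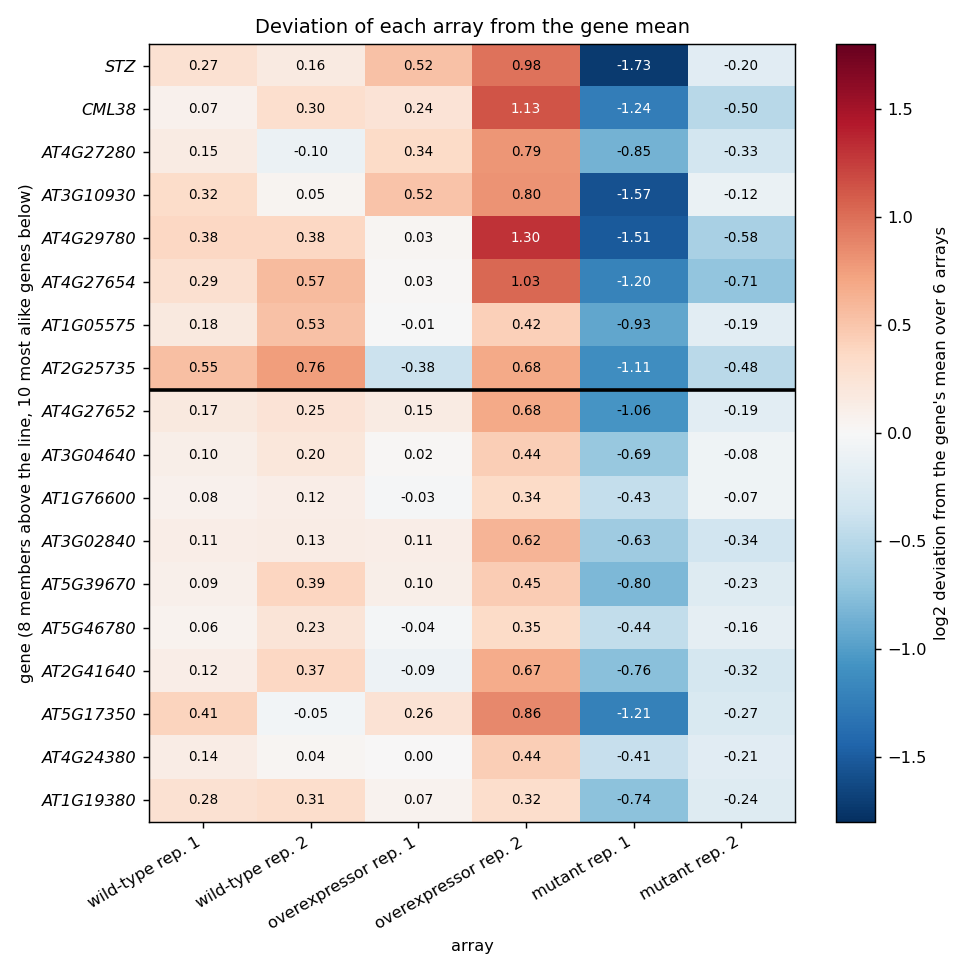
Log2 deviation of each array (columns) from the gene's own mean over 6 arrays, for the 8 members (above the line) and the 10 genes most like their average (below). Mutant replicate 1 is the bluest cell in every row, and it reaches -1.73 in STZ.

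Genes next to the members on the chromosome were compared through the gene table. Of 16 adjoining loci, 9 had a named probe set. AT4G27652 and AT4G27657, on either side of AT4G27654, were at -0.83 and -0.53 in the mutant against wild type and at 1.04 and 0.74 in the overexpressor against the mutant, where AT4G27654 itself was at -1.39 and 1.49. AT4G27657 gave 5.04 and 4.68 in wild type, 5.04 and 5.11 in the overexpressor, and 4.09 and 4.57 in the mutant. These 3 adjoining loci thus had the same order of genotype means, overexpressor, wild type, mutant. The place of the overexpressor above wild type depended on single arrays. Without overexpressor replicate 2, AT4G27654 was at -0.40 there, and overexpressor replicate 1 of AT4G27652 (8.05) lay below both wild-type arrays. Without wild-type replicate 2, AT4G27657 was at 0.03 in the overexpressor against wild type. Next to CML38, the gene CML39 for another calmodulin-like protein was dim, with all arrays between 4.14 and 4.32. It was not shown to lie above background, so a fall might not show in it. AT1G76660 on the other side of CML38 was at 0.28 in the mutant against wild type. The neighbours of AT4G27280, AT4G27270 and AT4G27290, were at 0.08 and -0.02, and at -0.01 and 0.12 without wild-type replicate 2. In the overexpressor against wild type AT4G27290 was at -0.44, where AT4G27280 was at 0.54. The other measured neighbours, AT4G29790, AT1G05577 and AT2G25730, were at -0.04, 0.11 and -0.08 in the mutant against wild type. Their members AT4G29780, AT1G05575 and AT2G25735 were at -1.42, -0.91 and -1.45. AT1G05577 was dim, at log2 3.74 to 4.12. Without mutant replicate 1 AT4G27652 was at -0.40 and AT4G27657 at -0.29, and without wild-type replicate 1 AT1G76660 was at 0.09. Whether neighbours and members share probes or regulation was not tested.

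The wider early stress response was read from 8 lists of 156 other loci, of which 39 (25%) were measured under a name. Measured here means that the annotation gave a probe set to that gene alone. It listed no gene for 8730 of 22746 probe sets, so genes not measured here may still have probes on the array. TCH2, TCH3, TCH4, ZAT12 and AZF2, textbook touch and stress genes, were not analysed here, and the jasmonate list and the list of MYB, NAC and heat shock factors had no measured gene. Of the 39 genes, 0 were called higher and 0 lower in each of the 3 comparisons (adjusted p under 0.05 by limma, Benjamini-Hochberg over all probe sets, two-sided). Over all probe sets 0.101% were called for the overexpressor against wild type, 0.0044% for the mutant against it, and 0.0132% between overexpressor and mutant (0.0044% higher and 0.00879% lower). Before adjustment, limma p-values under 0.05 numbered 3 of 39 for the overexpressor against wild type (11.8% of all probe sets), 15 of 39 for the mutant (9.33%), and 10 of 39 for the overexpressor against the mutant (5.05%). The lists were chosen with earlier results of these data known, so no conclusion is drawn from these counts.

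Against wild type 32 of the 39 had a lower mean in the mutant (51.6% of all probe sets), with a median difference of -0.26 against -0.01. Of these genes 23 had mutant arrays entirely below wild type, where 19% of all probe sets did. In the overexpressor 25 of 39 had a lower mean than wild type (48.4%), with a median of -0.03 against 0.01. Between overexpressor and mutant 30 of 39 were higher (51.4%) and 9 lower (48.6%), with a median of 0.15 against 0.00. Mutant replicate 1 was the lowest array for 20 of the 39 genes and for 13.4% of all probe sets, and mutant replicate 2 for 4 of 39 and 15.3%. Wild-type replicate 2, the array that stood apart, was the highest for 15 of 39 genes and for 25.1% of all probe sets. Because the lists were chosen with earlier results known, these counts describe the 39 genes and no conclusion is drawn from them.

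**Figure D4:**
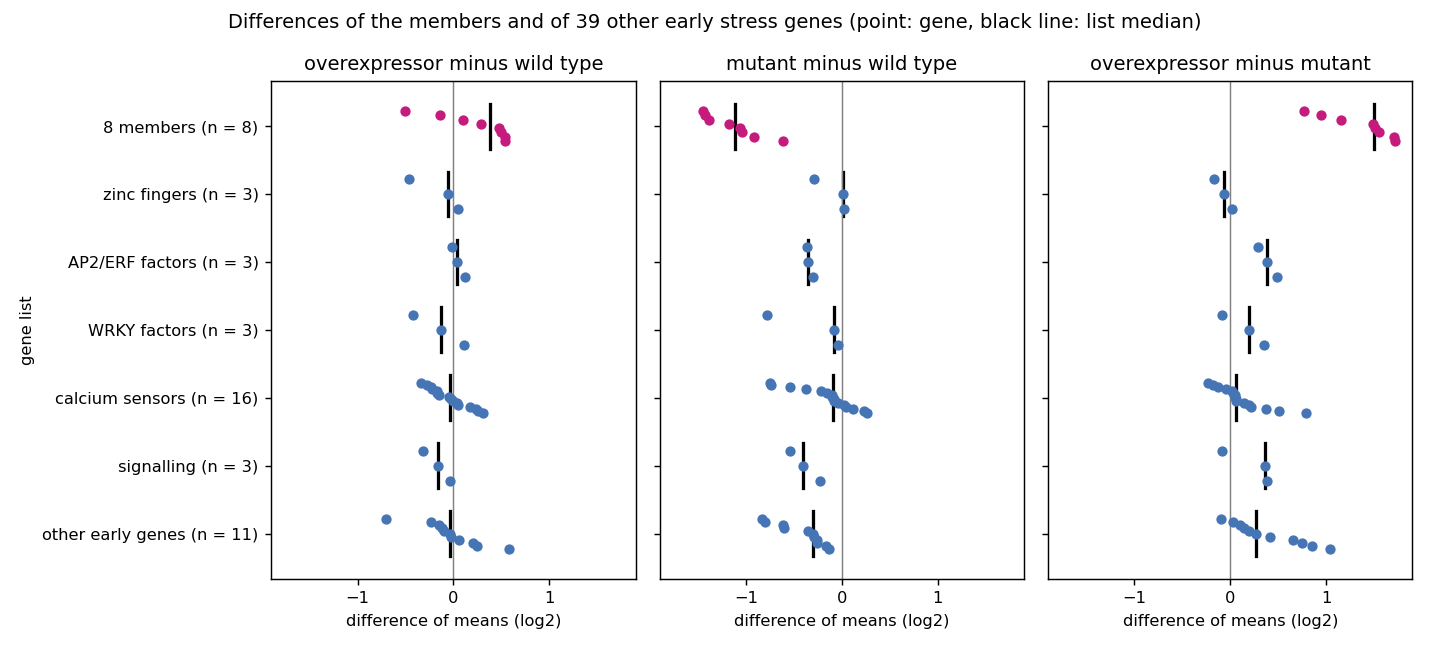
Difference of mean log2 signal (horizontal axis) for the 8 members (pink) and 39 other early stress genes (blue) by list (vertical axis), with 1 panel per comparison and a black line at each list's median. Most blue points lie left of 0 for the mutant against wild type (32 of 39), and every list median there lies nearer to 0 than the members' median of -1.12.

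Among calcium sensors, 11 of 16 measured genes had a lower mean in the mutant than in wild type, with a median of -0.10. AT5G39670 of this list was at 6.12 and 6.42 in wild type, 6.13 and 6.48 in the overexpressor, and 5.22 and 5.80 in the mutant. Its difference was -0.75 ± 0.21 in the mutant against wild type (limma adjusted p = 0.524) and 0.79 ± 0.21 between overexpressor and mutant (adjusted p = 0.614). CML37, a close relative of CML38, was at -0.22, -0.74 and 0.51 in the 3 comparisons (overexpressor and mutant against wild type, then overexpressor against mutant), with adjusted p from 0.524 to 0.999 by limma. CML37 was dim on every array, with its highest log2 signal, 4.23, in overexpressor replicate 2. It was not shown to lie above background, so its differences, the -0.74 included, may not reflect its transcript level. Without overexpressor replicate 2 the last value of CML37 was 0.11, and without mutant replicate 1 those of AT5G39670 were -0.46 and 0.50. CML39, also dim and not shown to lie above background, was at 0.17, 0.12 and 0.05. For the overexpressor against wild type the widest differences without overlap were 0.31 in CML30 and 0.25 in AT3G10190, and between overexpressor and mutant CML43 was at -0.23. Without wild-type replicate 2, CML30 was at 0.09 and AT3G10190 at 0.12, and without mutant replicate 2 CML43 was at -0.09. Calcium sensors thus included genes on both sides of 0.

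Few transcription factors of early stress were measured under a name. Of the AP2/ERF list 3 of 20 were measured, and 3 of 3 had a lower mean in the mutant than in wild type. ORA47, an AP2/ERF factor of jasmonate synthesis, was at -0.37 ± 0.157 there (limma adjusted p = 0.536) and at 0.48 between overexpressor and mutant, and AT1G77640 was at -0.35 and 0.38. The second value of ORA47 was 0.23 without overexpressor replicate 2. Of 18 WRKY genes 3 were measured. WRKY53, a regulator of senescence and defence, was at -0.78 ± 0.292 in the mutant against wild type (limma adjusted p = 0.525). In the overexpressor against wild type WRKY53 was at -0.43, and its lowest array was overexpressor replicate 1 (5.15). WRKY22 and WRKY6 were at -0.08 and -0.04 in the mutant against wild type. The zinc-finger list, to which STZ belongs by family, had 3 of 13 measured. AT2G28200 was at -0.46 and -0.29 in overexpressor and mutant against wild type and at -0.17 between them, AT3G60580 was at 0.02 in the mutant against wild type, and AT3G53600 was at -0.06 in the overexpressor against wild type. Without wild-type replicate 2, AT2G28200 in the mutant was at -0.15. None of these 3 zinc-finger genes was as far from wild type as STZ was in the mutant. AT3G53600 and AT3G60580 were dim on every array, at log2 3.66 to 3.84 and 4.09 to 4.14, and not shown to lie above background. A fall might not show in them, so the contrast with STZ rests on AT2G28200.

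Of the signalling list 3 of 26 were measured, all ubiquitin ligases of the PUB family that dampen immune responses. PUB23 was at -0.54 ± 0.174 in the mutant against wild type (limma adjusted p = 0.524), PUB22 was at -0.40 ± 0.114 (adjusted p = 0.524), and between overexpressor and mutant they were at 0.38 and 0.37. PUB24 was at -0.32 in the overexpressor against wild type. Without wild-type replicate 2, PUB24 was at -0.10 and PUB23 in the mutant at -0.34, and without overexpressor replicate 2 the last values of PUB23 and PUB22 were 0.18 and 0.24. Among other early-induced loci 11 of 23 were measured, and 11 of 11 had a lower mean in the mutant than in wild type (median -0.30). AT4G27652 (-0.83) and AR781 (-0.81) were the lowest without overlap, both at a limma adjusted p of 0.524. Between overexpressor and mutant AT4G27652 was at 1.04 and AT3G02840 at 0.85 (limma adjusted p = 0.628 and 0.349). For the overexpressor against wild type AT1G19020 was at -0.71 ± 0.125 (limma adjusted p = 0.125) and AT1G35210 at 0.58 ± 0.212 (adjusted p = 0.374). Without mutant replicate 1, AT4G27652 was at -0.40 and 0.61 and AR781 at -0.46, and without overexpressor replicate 2 AT1G35210 was at 0.28. The log2 signal of AT1G19020 was 8.84 and 9.09 in wild type, 8.18 and 8.33 in the overexpressor, and 8.24 and 8.46 in the mutant, so both lines lay below wild type.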

How the data were processed

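The authors deposited linear RMA signals (intensity) of the probe sets. Per the submitters' processing notes, Affymetrix Expression Console was used; its version is not given in the sources used here. A deposited copy differed from them by at most 5e-06. The authors also deposited a score table, the correlation of each pair of arrays. The design assumed log2 values, so log2 of the deposited values was taken first, with no pseudocount.

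Of 22810 probe sets 64 controls were left out. Genes were named by the platform annotation and looked up in the TAIR10.1 gene table: 13513 probe sets had 1 gene (13436 matched a locus), 503 several, 8730 none listed. The brightest probe set stood for a locus. Genotypes were compared in limma 3.58.1 under R 4.3.3 (1 mean per genotype, 3 residual and 4.25 prior degrees of freedom), checked on simulated data. With 2 arrays against 2, exact permutation allows no p under 0.333.

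The members and lists were chosen with earlier results of these data known. Named were all members, a few touch genes and relatives, per list and comparison the 2 genes farthest apart without overlap, any called gene, the 10 most alike genes, and each member's nearest gene. No promoter or protein sequence was used here.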

Additional observations from a re-analysis of the deposited data

How the results depend on the processing

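Differences of the members were recomputed with each array centred on its median, on log2(signal + 16), with the replicate number as a block, and without each array. The last choice moved them most. The median of the 8 genes ran from -0.15 to 0.69 for the overexpressor against wild type (0.38 with all arrays), the low end without overexpressor replicate 2. For the mutant against wild type it ran from -1.70 without mutant replicate 2 to -0.62 without mutant replicate 1, and between overexpressor and mutant from 0.93 to 1.83. Among single members, log2(signal + 16) moved CML38 most, from -1.06 to -0.68 in the mutant against wild type, and AT2G25735 there from -1.45 to -1.09. An average over probe sets was not run, since each member had 1.

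The count of early stress genes called, 0 in each comparison, ran from 0 to 7 without single arrays for either line against wild type. The 7 came without wild-type replicate 1, where the array that stood apart was the lone control and was assumed to vary like the other groups; of all probe sets 16.7% were called there for the overexpressor and 12.1% for the mutant, beside 7 of 39 in each. Centring, the filter on dim probe sets, an intensity trend, every probe set of a locus and a fit of only the 4 arrays compared left it at 0. The replicate block called 1 gene, AT1G19020, for the overexpressor against wild type and changed no other early stress count; over all probe sets it called 161 lower and 6 higher there, against 23 and 0. Over all probe sets the intensity trend called 38 lower there, the 4 arrays alone 0, and for the overexpressor against the mutant the 4 arrays alone called 5 higher and 53 lower, against 1 and 2. Deviations of same-numbered arrays correlated at 0.0533, 0.316 and 0.125 over the 3 pairs of genotypes, so the numbers were not taken as pairs. Leaving out 1 array turned CML37 in the overexpressor against wild type (-0.63 to 0.18) and CML39 between overexpressor and mutant (-0.0081 to 0.11); the cause was not tested. Among the other genes checked, CML37 and CML39 included, the sign turned without some array for 8 of 22 in the overexpressor against wild type. Of these 8, 5 were among the most alike genes. It turned for 4 of 25 in the mutant (all neighbours of members) and 3 of 25 between the lines. The 22 left out 4 of the most alike genes, AT4G27652, AT1G76600, AT3G02840 and AT5G39670. With all arrays these were at 0.20, 0.06, 0.24 and 0.04 in the overexpressor against wild type. In each, overexpressor replicate 1 lay below the wild-type mean, so these 4 also turned without overexpressor replicate 2. No detection calls were used here, so signal over background was not checked.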
